A study of Danio rerio with 12 samples.

Results

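Chromatin accessibility after decitabine was compared with that of the drug's own solvent controls in zebrafish embryos, over every region of the decitabine table. These are 45019 regions, of 80059 in the tables of the series. The other table compares a flame retardant, TDCIPP, with separate solvent controls, and holds 35040 regions. No value of the comparison was used to choose the regions.

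ATAC-seq was used: Tn5, a transposase, inserts adapters into open DNA, and reads collect where chromatin is accessible. Both groups were whole wild-type embryos of AB/Tuebingen stock at 6 hpf (hours post fertilization). Eggs were exposed right after spawning to 100 µM decitabine (DAC) or to 0.1% DMSO, the solvent. Each group has 3 libraries, and the labels do not say whether these came from separate clutches or whether the DAC wells held DMSO too. The header of the deposited table names the treated group 5AzaC, the name of a related cytidine analog, and DAC, the labels' name, is used throughout. No genes are listed, so the labelled tissue could not be checked against markers. Whole embryos are bulk samples, in which fewer cells with an open region and less opening per cell cannot be told apart.

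Decitabine is a cytidine analog that is built into DNA during replication and traps DNA methyltransferases, so that methylation is lost as cells divide. DNA methylation in vertebrates marks most of the genome, including transposons and other repeats, while many active promoters lack it. At this stage zebrafish embryos have been through rapid cleavage divisions and the start of zygotic transcription, and gastrulation is beginning. Repeats matter to how such data are read, since reads from near-identical copies can be placed at any of them. The long arm of zebrafish chromosome 4 is rich in repeats, alternate scaffolds hold other versions of stretches of the assembled chromosomes, and unplaced contigs are often repetitive.

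Each region has a level, the log2 of its mean normalized read count in a group, and a log2 fold, which equals the DAC minus the DMSO level within 0.01. A positive fold is a higher level after DAC. The table holds group means only, so no SD or test across the libraries could be computed, and the p-values are the authors' own. Intervals here are 95% and cover counting error only: exact binomial for shares, from order statistics for medians. Neighbouring regions are not independent, which these intervals do not take up.

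Accessibility after DAC was a little higher than in the controls at most regions, and no single region stood apart by the authors' test. The median region had 18.6 normalized reads after DAC and 17.6 with DMSO. Folds were above 0 at 26901 regions, 59.8% of them (59.3 to 60.2%), below 0 at 17710 and exactly 0 at 408. The median log2 fold in the authors' deposited table was 0.10, with quartiles of -0.17 and 0.36 and a range from -2.78 to 2.36. Summed over regions, the normalized reads came to 2.07 M per library after DAC and 1.88 M with DMSO. The direction of the overall shift rests on how the libraries were scaled: with both groups set to equal sums, 46.9% of folds were positive and the median was -0.03. Such a scaling lowers every fold by 0.13 and leaves the differences between classes of regions as they are.

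The adjusted p (FDR) in the authors' deposited table was 1 in every region, so 0 of 45019 regions (0%) passed 0.05. An unadjusted p under 0.05 was held by 453 regions, 1.01% of all. Of these, 340 (0.755%) were higher after DAC and 113 (0.251%) lower. Evenly spread p-values would put 0.05 of all regions under this threshold, a larger share than was seen. The count is thus no sign of change by itself. The smallest unadjusted p in the authors' deposited table was 0.000123. Folds of 1 or more, a doubling, were found at 404 regions (0.897%), and folds of -1 or less at 274 (0.609%).

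The regions with a small unadjusted p differed by direction in what they were. The 340 higher ones had a median of 26.4 reads after DAC and 12.1 with DMSO, a median log2 fold of 1.11 and a median width of 892 bp. The 113 lower ones had a median of 7.26 reads after DAC and 15.2 with DMSO, a median log2 fold of -1.08 and a median width of 1253 bp. Alternate scaffolds held 20.6% of the higher ones and 3.54% of the lower ones, against 9.77% of all regions. A region of the TDCIPP table, called in other libraries, overlapped 60.9% of the higher ones and 8.85% of the lower ones by 1 base or more, against 56.3% of all regions. These sets were picked by the size of their fold and are given as a description.

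Over all regions, the median fold was higher at higher levels, but within the regions that overlap the TDCIPP table, and within those that do not, this did not hold by DMSO level. The highest minus the lowest DMSO-level decile was 0.23 over all regions, 0.02 (-0.02 to 0.05) in the overlapping regions and -0.14 in the others. By the mean level of all 6 libraries the rise was found within both groups. From the lowest to the highest mean-level decile, medians went from 0.07 to 0.35 with overlap and from -0.19 to 0.23 without. Without overlap the medians stayed below 0 through the ninth decile, at -0.02 there, and the 0.23 rests on 224 regions. Regions were put in 10 equal classes, or deciles, by DMSO level. In the lowest, with DMSO levels up to 3, the median region had 6.63 reads with DMSO and 6.73 after DAC. In the highest, with DMSO levels from 5.79, it had 85.0 reads with DMSO and 108 after DAC. From lowest to highest decile the median log2 folds were 0.08, 0.02, 0.01, 0.02, 0.03, 0.05, 0.07, 0.13, 0.21 and 0.31. The lower deciles were thus nearly alike and the rise lay in the upper ones, and 2 of the 10 medians would be above 0 with equal sums. The share of positive folds was 56.6% in the lowest decile, 51.4% in the third and 84.1% in the highest. The spread went the other way, with quartiles of -0.26 and 0.42 in the lowest decile and 0.12 and 0.47 in the highest.

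The DMSO level is itself a term of the fold, so ordering by it and ordering by the DAC level tilt the medians in opposite directions. Ordered by the mean level of all 6 libraries, the median log2 fold ran from -0.15 in the lowest decile through 0.05 in the fifth to 0.35 in the highest. Ordered by the DAC level, it ran from -0.34 to 0.38. The 3 orderings differ at the low end, where the sign of the median depends on the ordering, and all give medians of 0.31 to 0.38 at the high end. The highest decile exceeded the lowest by 0.23 on the log2 scale by DMSO level, 0.50 by mean level and 0.72 by DAC level. Among the regions at or above the median mean level alone, the same difference by DMSO level was -0.10, the opposite sign. The mean level includes the DAC level, so regions of low DMSO level passed that cut through a higher DAC level. The change of sign can therefore not be read as a reversal of the trend.

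**Figure D1:**
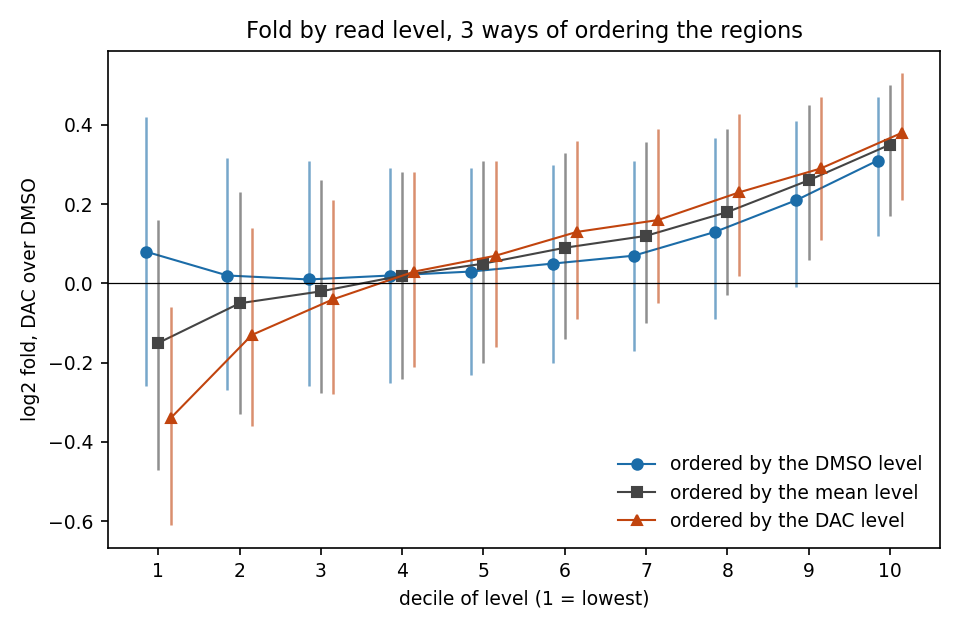
Median log2 fold, DAC over DMSO, (points) with quartiles (bars) in deciles of regions ordered by the DMSO level, the mean level or the DAC level. The medians of the highest decile lie between 0.31 and 0.38 in each ordering, while those of the lowest decile spread from -0.34 to 0.08.

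Small p-values followed the level in another way. In the lowest DMSO-level decile 2.18% of regions had an unadjusted p under 0.05, 87 of them higher after DAC and 11 lower. In the highest it was 0.0888%, 3 regions higher and 1 lower. The split by direction in the lowest decile depended on the ordering, with 18 higher and 29 lower by mean level, and 2 and 59 by DAC level. By mean level the share was 1.04% in the lowest decile, 1.38% in the sixth and 0.222% in the highest. The decile with the most one-sided folds at the deposited scaling therefore had the fewest small p-values. The median size of the log2 fold among regions with a p of 0.04 to 0.06 was 1.26 in the lowest mean-level decile, 0.89 in the fifth and 1.09, over 5 regions, in the highest. A fold of the size most regions showed at high level was thus far from the authors' threshold.

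Fixed classes of mean level give the same order up to level 8. At levels below 3 the median log2 fold was -0.16 over 4327 regions, and 36.7% of folds were positive. At levels 3 to 4 it was -0.01 over 15036 regions, and at 4 to 5 it was 0.10 over 14354. It was 0.25 at levels 5 to 6, 0.35 at 6 to 7 and 0.40 at 7 to 8, with 78.4%, 91.8% and 90.3% of folds positive. At the deposited scaling, accessible regions of middle to high level were thus the most one-sided. With equal sums every fold is 0.13 lower, and the shares of positive folds by level were not computed for that scaling. The 10798 regions at levels 5 to 8 are 24.0% of all regions and held 33.9% of the DMSO reads. At the deposited scaling they had 148893 more reads per library after DAC than with DMSO, and all regions together 184140 more. With equal sums the latter difference is 0 by construction, so no share of it is a property of the regions.

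Above level 8 the folds no longer followed this order. At levels 8 to 9 the median was 0.35 (0.345 unrounded) over 266 regions, and 82.0% of folds were positive. From level 9, which is 512 reads, the median was below 0. The 238 regions there, a bound chosen after the values were seen, are 0.529% of all regions and held 34.5% of the DMSO reads. Their median log2 fold was -0.12, with quartiles of -0.30 and 0.27, and 47.1% of folds were positive. Their reads summed to 0.989 of the DMSO sum, a difference of -7041 reads. Without them the DAC sum was 1.42 M and the DMSO sum 1.23 M, a ratio of 1.16 in place of 1.10.

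These highest regions fell into a narrow negative and a broad positive set. Negative folds were held by 125 regions, with a median of -0.30 and quartiles of -0.34 and -0.25. Positive folds were held by 112, with a median of 0.30 and quartiles of 0.17 and 0.59, and 36 of these lie on chromosome 4. In the band from -0.45 to -0.15, also chosen after the values were seen, lay 117 of the 238, or 49.2%. Of the 3977 regions at levels 6 to 9, 197 lay in that band, or 4.95%, and their median was 0.36.

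**Figure D2:**
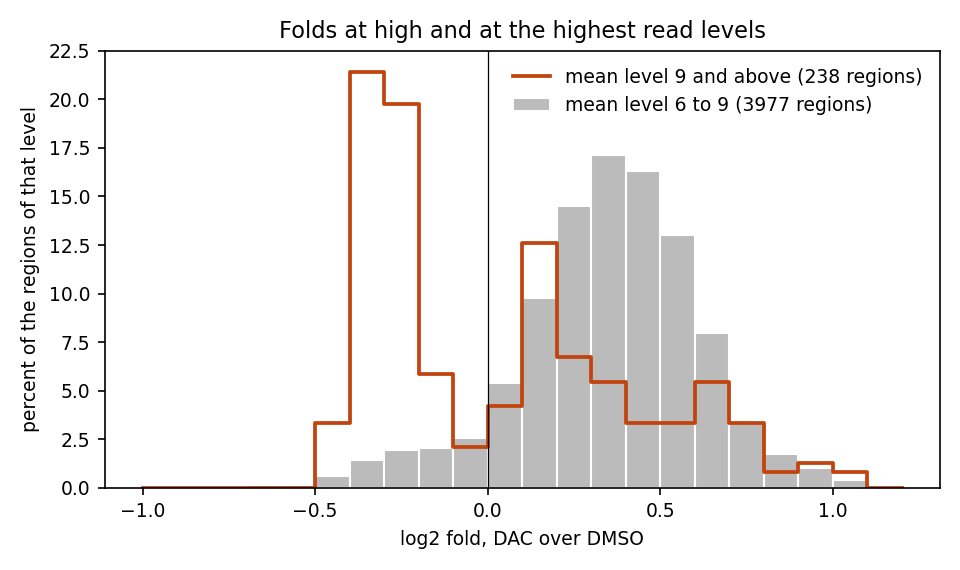
Distribution of log2 folds, DAC over DMSO, among regions of mean level 9 and above (line) and of mean level 6 to 9 (bars), in percent of the regions of each class. The 238 highest regions hold a narrow peak around -0.30 that the 3977 regions below them lack, and a broad set of positive folds.

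The highest regions lie close together, and those of one place had like folds. Joined where they lay within 50 kb, they made 104 places, of which 21 held 4 or more of them. In 11 of the 21 every fold was negative, in 7 every fold was positive, and 3 were mixed. The 60 regions of the negative places had folds from -0.50 to -0.19, and the place medians ran only from -0.36 to -0.26 over 10 different sequences. The positive places were less uniform, with medians from 0.18 to 0.96, and 4 of the 7 lie on chromosome 4.

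Among the negative places, chr10:16784756-16841045 held 9 regions with 32666 reads after DAC and 38985 with DMSO in all, and a median log2 fold of -0.26. The place chr17:46481410-46519262 held 7 regions with 7424 and 9464 reads and a median of -0.36. At chr2:19423093-19484483, another 7 regions had 15405 and 19304 reads and a median of -0.36. These places lie on different chromosomes, and their medians differ by no more than 0.10. All of them were picked from the places where every fold was negative. The smallest p in the authors' deposited table at them was 0.37, 0.427 and 0.448, in that order.

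Among the positive places, chr5:43129273-43255407 held 5 regions with 10678 reads after DAC and 5657 with DMSO, a median log2 fold of 0.96 and a smallest p of 0.0829. At chr4:42623820-42661275, 4 regions had 15027 and 10968 reads and a median of 0.46 (0.455 unrounded).

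One pair of places shows the same pattern on an assembled chromosome and on one of its alternate scaffolds. On chr4:77553032-77566882, 4 regions of 1640, 839, 3784 and 2301 bp had log2 folds of 0.57, 0.60, 0.63 and 0.64 in the authors' deposited table. On chr4_KZ115098v1_alt:3122-17001, 4 regions of 1664, 852, 3702 and 2372 bp had folds of 0.61, 0.64, 0.64 and 0.63. DAC reads were 1003, 776, 2684 and 1351 on the chromosome and 1010, 787, 2610 and 1380 on the scaffold. The widths, reads and folds match region by region, and whether the pair are separate measurements was not tested. How the authors placed reads with several matches is not stated in the sources.

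**Figure D3:**
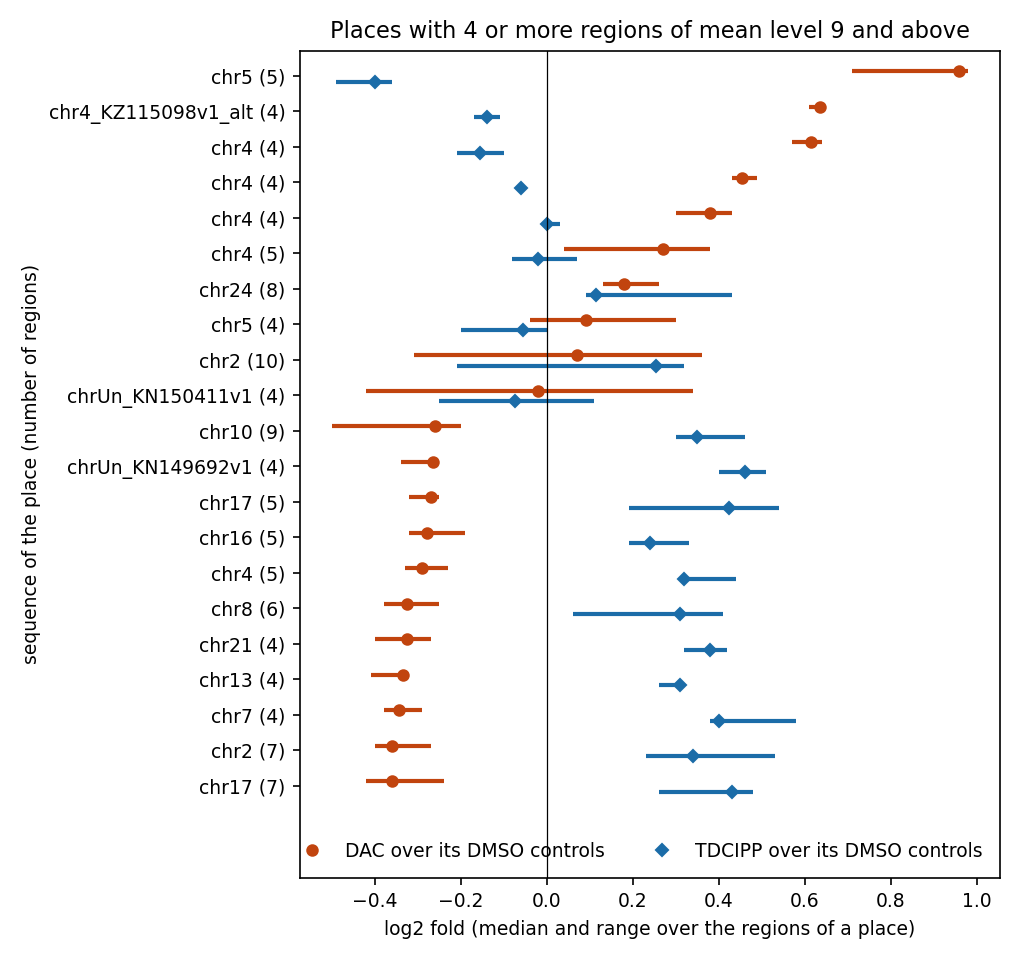
Median and range of the log2 fold over the regions of each of the 21 places with 4 or more regions of mean level 9 and above, for DAC over its DMSO controls and for TDCIPP over its own. The 11 places with only negative DAC folds have medians from -0.36 to -0.26, and their TDCIPP medians run from 0.24 to 0.46.

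The 3 regions of highest DMSO level on the assembled chromosomes all lie on chromosome 4 and had folds near 0. The 3 highest of the alternate scaffolds and of the unplaced contigs had larger folds, of either sign. Their DMSO levels were 13.65 or less, against 14.06 or more, so level and class of sequence are not separated here. Folds near 0 were not general on chromosome 4, where the medians of the places above ran from -0.29 to 0.615. On chromosome 4, the region at 30951230-30998264 had 19893 reads after DAC and 19756 with DMSO, and the authors' deposited table gives a log2 fold of 0.01 (p = 0.995). The next ones, at 69955823-70004284 and 69461875-69484814 of chromosome 4, had folds of -0.12 and -0.06 there. Of the alternate scaffolds, the highest was chr20_KZ115604v1_alt:135502-137833, with 10960 and 12855 reads and a fold of -0.23. It was followed by chr11_KZ115349v1_alt:257198-261372, with 2539 and 3421 reads and a fold of -0.42, and by the third region of the scaffold place above, with a fold of 0.64. Of the unplaced contigs, chrUn_KN149693v1:4750-24293 had 9281 and 11747 reads and a fold of -0.34. A second region of that contig, 30737-39224, also had a fold of -0.34, and chrUn_KN150271v1:219-2204 one of -0.23. None of these 9 regions had a p below 0.141 in the authors' deposited table.

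Wider regions had lower folds. From the narrowest to the widest decile of width, the median log2 folds were 0.21, 0.17, 0.15, 0.14, 0.13, 0.11, 0.09, 0.05, 0.02 and -0.02. The share of positive folds went from 69.4% to 48.0%. The 1645 regions under 500 bp had a median of 0.25, and the 5649 regions of 2 to 4 kb one of -0.02. The order ended there, since the 821 regions of 4 kb or more had a median of 0.08. The widest decile lay 0.23 below the narrowest on the log2 scale, a difference of -0.23.

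Wide regions collect more reads, so width and level rise together, while the median fold fell with width and rose with level. The median DMSO count was 11.2 reads in the narrowest decile and 39.1 in the widest, while the count per kb was 21.5 in the narrowest and 12.3 in the widest. Within deciles of mean level, the widest-minus-narrowest difference was larger, with a median of -0.42 and a range from -0.57 to -0.13 over the 9 deciles with enough regions. In 5 equal classes of each, the lowest level class had medians of 0.00 in the narrowest width class and -0.18 in the widest. The middle level class had 0.27 in the narrowest and -0.16 in the widest. The highest had 0.39 and 0.20.

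**Figure D4:**
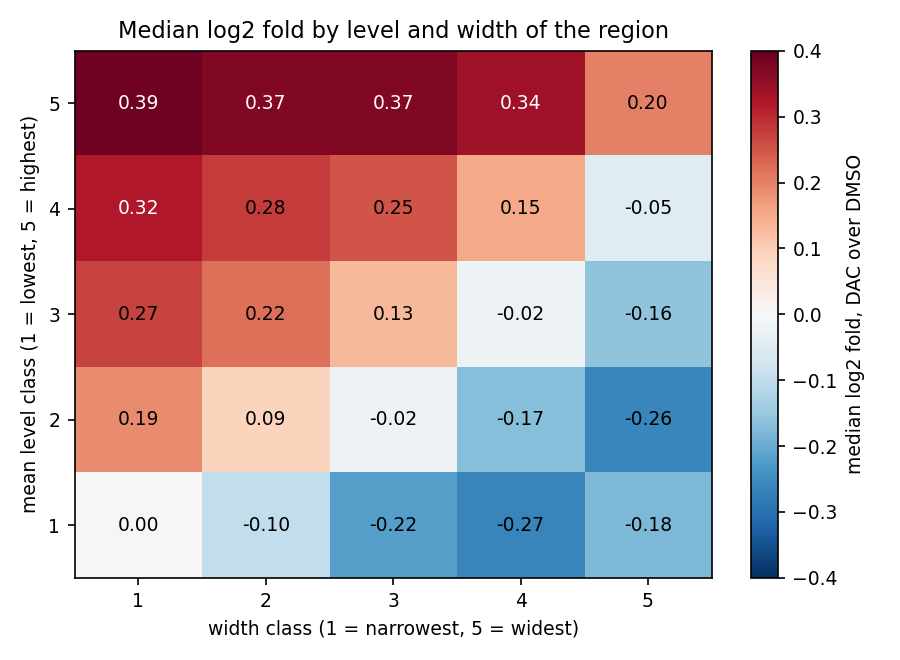
Median log2 fold, DAC over DMSO, in 25 classes formed by 5 equal classes of mean level (rows) and 5 of region width (columns), with the value in each cell. Narrow regions of high level reach 0.39, and wide regions of low or middle level lie below 0.

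Read density joins the pair. By DMSO reads per kb, the median log2 folds from the lowest to the highest decile were -0.01, -0.08, -0.07, -0.02, 0.01, 0.08, 0.15, 0.19, 0.28 and 0.34. This order is not free of width, since the median width was 1391 bp in the lowest decile and 989 bp in the highest. In the highest decile 87.8% of folds were positive. By the mean reads per kb of both groups the medians went from -0.26 to 0.37. The lowest densities thus had somewhat lower and the highest densities higher levels after DAC than with DMSO. Every median here would lie 0.13 lower with the sums of both groups set equal.

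The widest regions of each class of sequence had folds from 0.04 to 0.31. The region chr20:25764946-25824051 is 59106 bp wide and had 393 reads after DAC and 317 with DMSO, and the authors' deposited table gives a log2 fold of 0.31 (p = 0.521). The widest on an alternate scaffold, chr6_KZ115206v1_alt:55289-70578, had 153 and 129 reads and a fold of 0.25. The widest unplaced one, chrUn_KN149688v2:57139-98767, had 4673 and 4545 reads and a fold of 0.04.

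Over all levels together, spacing made little difference to the median fold, except at the shortest distances. Distance was taken edge to edge to the nearest other region of the same sequence, and its median was 8522 bp. The 2983 regions with a neighbour under 1 kb away had a median log2 fold of 0.03, and 52.9% of their folds were positive. The 11324 regions at 1 to 5 kb had a median of 0.12, the 19519 at 5 to 20 kb one of 0.11 and the 10081 at 20 to 100 kb one of 0.10. The 773 regions at 100 kb or more had 0.13 (0.08 to 0.17), and the 339 alone on their sequence 0.11. Regions of the TDCIPP table overlapped 37.9% of those under 1 kb and 57.8% of those at 1 to 5 kb. Among the overlapping regions the medians of these 2 classes were 0.22 and 0.23, and among the others -0.06 in both. Regions with a neighbour under 5 kb away differed from those at 100 kb or more by -0.03, with an interval of the difference from -0.07 to 0.03. On assembled chromosomes alone that difference was 0.03. Within deciles of mean level it had a median of -0.10 and ran from -0.155 to 0.125. Among the regions with a neighbour under 1 kb away, medians from the lowest to the highest of 5 mean-level classes were -0.05, -0.02, -0.02, 0.00 and 0.26. Among those at 1 to 5 kb they were -0.10, -0.01, 0.05, 0.16 and 0.30.

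Neighbouring regions had more similar folds within 5 kb than at longer distances. Over 1528 pairs of adjacent regions under 1 kb apart, Pearson's r of the folds was 0.356, and over 6602 pairs at 1 to 5 kb it was 0.335. It was 0.203 over 16200 pairs at 5 to 20 kb, 0.118 over 16093 pairs at 20 to 100 kb and 0.0493 over 3182 pairs at 100 kb or more. With level and read density taken out of the folds, r was 0.297 under 1 kb and 0.330 at 1 to 5 kb. Both folds had the same sign in 62.2% of pairs under 1 kb apart, in 64.5% at 1 to 5 kb and in 52.7% at 100 kb or more, and any pair of regions would share it in 52.1% by the overall shares of each sign. These are correlations across pairs of regions that come from the same libraries, and the measure was chosen after other values were seen.

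**Figure D5:**
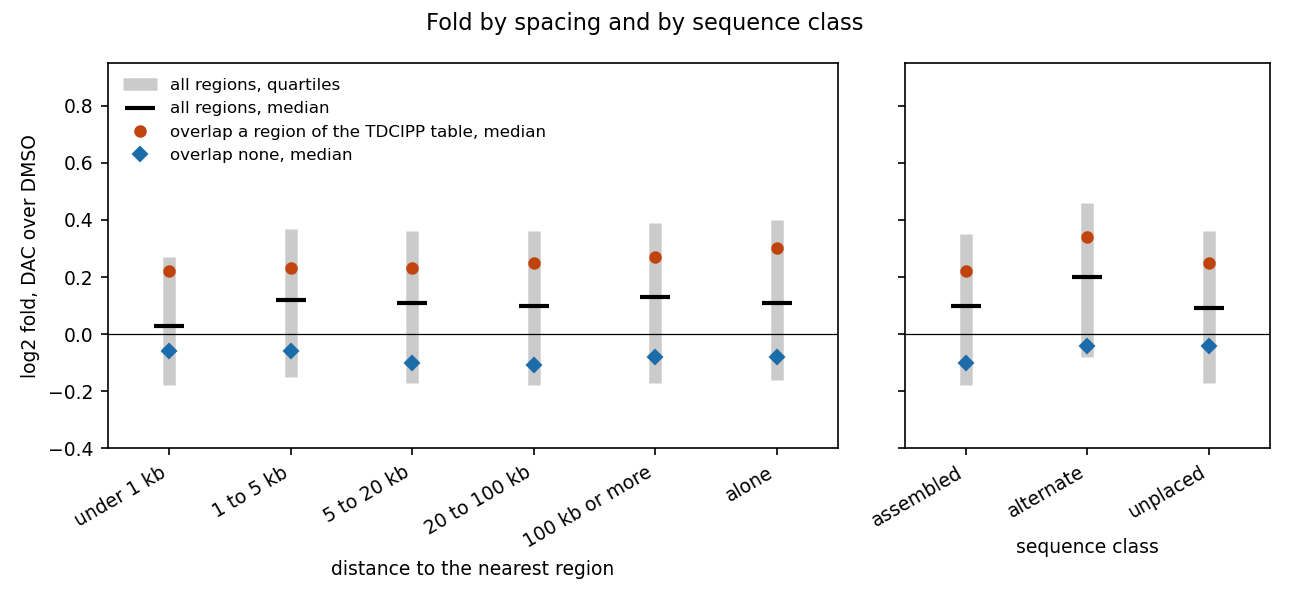
Median (dash) and quartiles (grey bar) of the log2 fold, DAC over DMSO, by distance to the nearest region and by class of sequence, with the medians of regions that overlap a region of the TDCIPP table (circles) and of those that overlap none (diamonds). Distance classes lie between 0.03 and 0.13, alternate scaffolds at 0.20, and overlapping regions lie above the others in every class.

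At the deposited scaling, runs of adjacent regions with large folds of one sign were longer in the positive direction. A run was taken as consecutive regions within 10 kb of each other, all with a log2 fold of 0.5 or more, or all with -0.5 or less. Of all 45019 regions, 6432 lay past 0.5. These formed 5690 runs, of which 5147 were single regions, 14 held 5 or more and the longest held 15. The 3275 regions past -0.5 formed 3096 runs, of which 2944 were single, 3 held 5 and none more. More regions lay past 0.5 than past -0.5, and the length of runs depends on that number. With equal sums every fold is 0.13 lower, so fewer regions would pass 0.5 and more would pass -0.5. Runs at that scaling were not computed.

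The longest run lay on an unplaced contig, chrUn_KN149682v1:8372-42510, and was evenly spaced apart from a wider step. Its 15 regions are 453 to 849 bp wide and start a median of 2260 bp apart, with steps from 1993 to 4447 bp. Levels there had a median of 5.36 with DMSO and 6.24 after DAC, and the log2 folds ran from 0.76 to 1.19 with a median of 0.91. The highest fold, at 15219-15806, stood for 78.2 reads after DAC and 34.1 with DMSO (p = 0.0328 in the authors' deposited table). Over all 22 regions of the contig the median fold was 0.81, and 4 had a p under 0.05. The share over all regions of the genome was 1.01%. The contig is named for a run picked by its folds, so this count is a description.

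The next run, chr15:16474384-16507451, was spaced almost alike. Its 13 regions start a median of 2224 bp apart and have a median width of 766 bp, against 680 bp on the contig. The steps ran from 2109 to 7752 bp, and the widest came first. Their folds ran from 0.69 to 1.02, again with a median of 0.91, and the smallest p in the authors' deposited table was 0.12. At 16493291-16494093, the region with the highest fold had 223 reads after DAC and 110 with DMSO. The repeated spacing of both runs is a fact of the coordinates, and no sequence of this build was at hand to compare them.

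The third run, chr5:43119833-43285571, holds 12 regions, up to 46653 bp wide, and takes in the chr5 place of very high level. Its folds ran from 0.64 to 1.22 with a median of 0.94. The region with most reads, chr5:43212221-43225189, had 5008 after DAC and 2574 with DMSO, a fold of 0.96 in the authors' deposited table (p = 0.0909). Of these 3 runs, which were picked by their folds, only the one on the contig held regions with an unadjusted p under 0.05.

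The longest negative runs held 5 regions each, and their median DMSO levels were 4.29, 3.53 and 4.2, against 4.14 over all regions. On chr14:2038564-2068893, 5 regions had folds from -1.14 to -0.62. The first of them had 11.1 reads after DAC and 24.4 with DMSO (p = 0.0103 in the authors' deposited table). On chr10:21699518-21725094, 5 regions had folds from -1.17 to -0.53, with a smallest p of 0.0696. On chr14:1984390-2008083, close to the first, 5 regions had folds from -0.70 to -0.51, with a smallest p of 0.0873. No region of these runs had over 25 reads per library in either group.

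Alternate scaffolds had higher folds than the assembled chromosomes. The 39281 regions of the 25 chromosomes had a median log2 fold of 0.10, and 58.9% of folds were positive. The 4397 regions of 873 alternate scaffolds had a median of 0.20 (0.18 to 0.22), and 67.3% were positive (65.9 to 68.7%). The 1341 regions of 516 unplaced contigs had a median of 0.09 (0.07 to 0.11), and 59.7% were positive. Unadjusted p-values under 0.05 were held by 0.927% of assembled, 1.68% of alternate and 1.12% of unplaced regions. With equal sums only the median of the alternate scaffolds would be above 0. On alternate scaffolds 70 of these were higher after DAC and 4 lower, against 256 and 108 on the chromosomes and 14 and 1 on the unplaced contigs.

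The higher folds of the alternate scaffolds were found at each level and on most chromosomes. Within deciles of mean level the difference from the chromosomes had a median of 0.12 and ran from 0.08 to 0.18. Set against their own chromosome, the alternate scaffolds had the higher median for 22 of 25 chromosomes, an equal one for chromosome 21 and a lower one for chromosomes 8 and 22. The widest gap was on chromosome 4, with 0.38 on its alternate scaffolds and 0.11 on the chromosome. Unplaced contigs differed from the chromosomes by -0.01, and within deciles of mean level by 0.02.

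Medians of single scaffolds rest on few regions each, and spread widely. Of the 91 alternate scaffolds with 10 or more regions, 70 had a median above 0, and the medians ran from -0.37 to 0.78. Of 17 unplaced contigs of that size 16 had a median above 0, from -0.11 to 0.81. With equal sums 54 of the 91 and 9 of the 17 would be above 0. The extremes of the alternate scaffolds were named after their values were seen. The highest was chr14_KZ114937v1_alt, with a median of 0.78 over 11 regions, 3 of them with p under 0.05. The lowest was chr8_KZ115273v1_alt, with -0.37 over 30 regions and none with p under 0.05. Over all alternate regions the share with p under 0.05 was 1.68%, and these scaffolds were picked by their folds.

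All 25 chromosomes had a median log2 fold above 0, within a narrow range. Chromosome 22 had the highest, 0.16 (0.13 to 0.19), although its alternate scaffolds had only 0.06. Chromosomes 3 and 6 followed, at 0.14 (0.12 to 0.16) and 0.14 (0.11 to 0.15). Chromosome 9 had the lowest, 0.04 (0.01 to 0.07), before chromosomes 17 and 24 at 0.05 (0.03 to 0.07) and 0.05 (0.02 to 0.07). These chromosomes were picked as the extremes of 25, so their order is a description. With equal sums 3 of the 25 medians would be above 0. The ratio of summed reads gave another order, from 0.977 on chromosome 8 to 1.19 on chromosome 4.

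The 5 largest folds at a mean level of 5 or more were at regions that passed this bound through their DAC level. Their DMSO levels ran from 3.55 to 4.59, below the bound. With a mean level of 5 or more (32 reads, the 75th percentile), the largest was at chr23_KZ115664v1_alt:103853-106078, with 59.7 reads after DAC and 11.7 with DMSO, a log2 fold of 2.36 (p = 0.0345 in the authors' deposited table). At the next, chr14:558483-560255, there were 52.3 and 19.3 reads, and the authors' deposited table gives a fold of 1.44 (p = 0.00294 from the authors' DiffBind). The others were chr24:3365647-3366786 with 1.44 (p = 0.004), chr1:17440377-17441524 with 1.43 (p = 0.00172) and chr4:23125663-23127109 with 1.43 (p = 0.00482), all from the authors' deposited table. The largest fold had the largest p of these 5 regions. The adjusted p of each was 1.

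One region had a far lower fold than the others named here. At chr24:42143266-42146469 there were 50.6 reads after DAC and 350 with DMSO, and the authors' deposited table gives a log2 fold of -2.78 (p = 0.00888, adjusted p = 1). The 7 regions around it, chosen after its value was seen, had folds from -0.85 to 0.42, 5 of them below 0. The lowest of these, chr24:42152410-42153625, had 26.4 reads after DAC and 47.5 with DMSO (p = 0.0818 in the authors' deposited table). At a mean level of 5 or more, the next lowest fold was -0.94, at chr17:1732730-1733824. That region had 22.8 reads after DAC and 43.7 with DMSO (p = 0.0281 in the authors' deposited table). It was followed by chr24_KZ114993v1_alt:32076-33700 at -0.93, chr21:37852582-37854900 at -0.89 and chr17:516064-518403 at -0.87. The regions at chr17:1732730-1733824, on the chr24 alternate scaffold and on chr21 had DAC levels of 4.51, 4.69 and 4.69, below 5. They passed the bound on the mean level through their DMSO levels. Of the 10 regions with the largest or smallest folds at a mean level of 5 or more, 8 had an unadjusted p under 0.05. The share over all regions was 1.01%. These 10 were picked by the size of their fold, so their p-values are a description.

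Whether a region was also called in the TDCIPP table, which comes from other libraries, went with its fold. The 25324 regions that overlap one by 1 base or more, 56.3% of all, had a median log2 fold of 0.23, and 75.5% of folds were positive. The 19695 others had a median of -0.09, and 39.5% were positive. The overlapping regions had more reads, so the comparison was repeated within deciles of mean level. The overlapping regions had the higher median in every decile, with 0.07 against -0.19 in the lowest, 0.15 against -0.08 in the fifth and 0.35 against 0.23 in the highest.

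The same held within each class of sequence and of width. On alternate scaffolds the medians were 0.34 with and -0.04 without overlap, on assembled chromosomes 0.22 and -0.10, and on unplaced contigs 0.25 and -0.04. In the narrowest of 5 width classes they were 0.27 and 0.08, and in the widest 0.19 and -0.15. Of the 25324 overlapping regions, 0.857% had an unadjusted p under 0.05, 207 of them higher after DAC and 10 lower. Of the 19695 others 1.198% had one, 133 of them higher and 103 lower. The groups differ in size, so the counts of higher regions cannot be compared directly between them. The split by direction within each group does not depend on its size. This grouping was added after other values were seen, and how the authors formed each table's set of regions is not stated in the sources.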

How the data were processed

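Values came from the deposited DiffBind comparison of DAC with its DMSO controls. Per the file headers, the authors gave each region a log2 mean level over all libraries and in each group, a log2 fold, a p-value and its FDR (the adjusted p-value). Named without versions or order in the submitters' processing notes are GRCz11, DiffBind, deepTools, MACS2, Picard and Bowtie2. The treatment of Tn5 shifts, duplicates and reads with several matches, the normalization and the engine behind the p-values are not stated in the sources. The table holds 0 columns of single libraries, so replicates could not be compared and depth is known only as a group mean.

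Reads are 2 to the power of the level. Deciles, medians, distances and overlaps were computed with Python 3.11.15, numpy 2.4.6, pandas 2.3.3 and scipy 1.17.1, and figures with matplotlib 3.10.9. The scripts were tested on simulated data. No filter was applied. Start and end are printed as in the table.

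Named regions were the 5 largest and 5 smallest folds at or above the 75th percentile of mean level, the 3 highest DMSO levels and the widest region of each class of sequence, the 3 longest runs in each direction, and the 2 chromosomes with the highest and the 2 with the lowest median (ties included). Regions and groupings were chosen with earlier results of these data known. Genes, repeats and sequences of this build are not used here.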

Additional observations from a re-analysis of the deposited data

How the results depend on the processing

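Only group means are known, not the spread between libraries, and folds at low levels rest on few reads. No paired analysis was possible because the table holds no single-library values, and leaving out a library was not run either. Of 64 alternatives, 28 kept the value near its reported size, 24 moved it and 12 reversed its sign or side. Those by overlap with the TDCIPP table, without chromosome 4 and within each chromosome were chosen after seeing the data. The cause of each difference was not tested.

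The 59.8% of positive folds became 58.9% on assembled chromosomes, 72.5% at or above the median level, 46.9% with equal sums, 49.9% after centring on the median, 75.5% with overlap and 39.5% without. The median of 0.10 became 0.21 at or above the median level, 0.080 with 5 reads added, -0.035 with equal sums, 0.23 with overlap and -0.09 without. The level difference of 0.23 became -0.10 at or above the median level, 0.50 by mean level, 0.72 by DAC level, 0.35 by DMSO reads per kb, 0.02 with overlap and -0.14 without. The -0.10 comes from a cut that itself uses the DAC level, so its sign is no evidence of a reversal. The width difference of -0.23 became -0.35 at or above the median level, -0.16 with 5 reads added, -0.14 with regions within 10 kb joined into 29378 places, -0.42 within levels, -0.10 with overlap and -0.30 without.

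The spacing difference of -0.03 became 0.03 on assembled chromosomes, -0.10 within levels, -0.08 for under 1 kb against 50 kb or more, and 0.02 without overlap. It has no value once regions are joined. The alternate-scaffold difference of 0.10 became 0.074 with 5 reads added and 0.06 without overlap. The unplaced difference of -0.01 became -0.04 at or above the median level, 0.02 within levels, 0.03 with overlap and 0.06 without. The 453 of 45019 regions with an unadjusted p under 0.05 were 52 at 0.01 and 1308 at 0.1. Evenly spread p-values would put 0.01 and 0.1 of all regions under these thresholds, larger shares than were seen. At or above the median level there were 205, of only 22566 regions, so this count cannot be compared directly with the 453. The count of 0 regions by adjusted p held wherever it was recomputed.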

Other observations

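At the regions of mean level 9 and above, folds of TDCIPP over its own DMSO controls, which are other libraries, were set beside those of DAC. TDCIPP folds were mostly positive where DAC folds were negative, and of either sign where DAC folds were positive. Whatever the DAC fold, 224 regions of this level overlap a region of the TDCIPP table. Of these, 155 had a positive TDCIPP fold, and the median was 0.185. Of the 125 regions with a negative DAC fold, 115 overlap a region of the TDCIPP table, and 108 of these had a positive TDCIPP fold there, with a median log2 fold of 0.34. Of the 112 with a positive DAC fold, 108 overlap one, and 47 had a positive TDCIPP fold, with a median of -0.02. The 5 regions of the chr5 place, with DAC folds from 0.71 to 0.98, had TDCIPP folds from -0.49 to -0.36. At the 8 regions of chr24:12368722-12528859, DAC folds ran from 0.13 to 0.26 and TDCIPP folds from 0.09 to 0.43.

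At the runs on chrUn_KN149682v1 and chr15 the TDCIPP folds were smaller than the DAC folds. Both runs were picked by their DAC folds, so larger DAC folds there are in part fixed by the choice. On chrUn_KN149682v1, 3 of the 15 regions overlap one, with TDCIPP folds of 0.32, 0.24 and 0.38. On chr15, 9 of the 13 regions overlap one, and their TDCIPP folds ran from -0.08 to 0.07. The chr24 region with a DAC fold of -2.78 had a TDCIPP fold of 0.36, and the alternate-scaffold region of chr23 with a DAC fold of 2.36 had one of -0.56. These regions too were picked as extremes of the DAC fold.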
